A study of Mus musculus with 70 samples.

Results

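The guanylate-binding protein genes Gbp2, Gbp3, Gbp4, Gbp5, Gbp6, Gbp7, Gbp8 and Gbp9 were followed by RNA sequencing in 8 mouse cancer cell lines. They were taken by their symbols, as 8 of the 35197 gene rows of the table of estimated counts, and all 8 were among the 16147 genes that passed the filter on low counts. Cells had received interferon gamma (IFNg, 100 ng/mL) or interferon beta (IFNb, 1000 units/mL) for 48 h, or no stimulation (NS). The melanoma lines were B16.1 and YUMMER1.7, the colorectal lines CT26.2 and MC38.7, the pancreatic lines KPC.2 and Panc02.3, the lung line LLC and the renal line Renca. CT26.2 and Renca carry the BALB/c genotype and the other 6 lines C57BL/6. There were 23 libraries with IFNg, 24 with IFNb and 23 without stimulation. Of the 24 groups of line and treatment, 22 had 3 libraries; the 2 groups with 2 were IFNg-treated LLC and Renca without stimulation. The labels do not say whether a line is a single clone. Nor do they say that replicates came from separate cultures, and a p-value therefore reflects library-to-library spread that could be technical.

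Guanylate-binding proteins are large GTPases of the dynamin superfamily that interferons induce and that coat the vacuoles and surfaces of intracellular bacteria and parasites, open them to further attack and feed inflammasome pathways. IFNg acts through the receptor chains Ifngr1 and Ifngr2 and the kinases Jak1 and Jak2, and its signal reaches genes through gamma-activated sites (GAS). IFNb acts through Ifnar1 and Ifnar2 and the kinases Jak1 and Tyk2 on a complex that holds Stat2 and Irf9 and binds interferon-stimulated response elements (ISRE), and Irf1 binds similar elements. In mice the genes lie in a cluster on chromosome 3 and another on chromosome 5, and tumour cells share this response with leukocytes.

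RefSeq's promoter table for GRCm38.p6 held an entry for 4 of the 8 members, those on chromosome 3. The sequences before their starts are therefore shown, and none for the chromosome 5 members. The 250 bases before each start were at chr3:142496684-142496933 for Gbp5, chr3:142530086-142530335 for Gbp7, chr3:142559794-142560043 for Gbp3 and chr3:142620413-142620662 for Gbp2, all on the plus strand. Capitals mark letters that match an ISRE core (GAAA, any 2 bases, GAAA) or a GAS core (TTCNNNGAA) on either strand, and the runs that begin with TTTC are the ISRE matches.
Gbp5: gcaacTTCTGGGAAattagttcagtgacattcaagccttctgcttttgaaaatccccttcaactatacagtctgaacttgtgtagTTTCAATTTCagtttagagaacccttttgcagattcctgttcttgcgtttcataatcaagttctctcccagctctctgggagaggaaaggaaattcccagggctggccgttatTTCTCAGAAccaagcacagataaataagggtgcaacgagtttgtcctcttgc
Gbp7: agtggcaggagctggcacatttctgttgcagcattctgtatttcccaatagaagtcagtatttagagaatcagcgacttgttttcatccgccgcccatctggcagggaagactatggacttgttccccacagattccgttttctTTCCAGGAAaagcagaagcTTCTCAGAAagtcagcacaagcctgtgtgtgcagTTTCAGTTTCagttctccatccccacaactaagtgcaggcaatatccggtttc
Gbp3: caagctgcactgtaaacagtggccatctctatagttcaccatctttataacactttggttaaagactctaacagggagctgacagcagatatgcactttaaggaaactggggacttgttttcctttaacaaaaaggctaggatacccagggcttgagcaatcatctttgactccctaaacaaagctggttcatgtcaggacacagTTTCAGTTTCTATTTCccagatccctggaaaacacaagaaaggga
Gbp2: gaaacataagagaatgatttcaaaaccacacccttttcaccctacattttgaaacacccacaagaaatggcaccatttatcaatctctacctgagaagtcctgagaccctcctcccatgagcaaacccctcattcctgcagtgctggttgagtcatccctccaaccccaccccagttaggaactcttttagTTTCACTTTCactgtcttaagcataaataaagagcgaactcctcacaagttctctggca
All 4 windows held an ISRE core: 59 to 50 bases before the start in Gbp2, 53 to 44 bases in Gbp7, 165 to 156 bases in Gbp5, and a pair that overlap in Gbp3, at 45 to 36 and 39 to 30 bases. GAS cores stood at 245 to 237 and 52 to 44 bases before the start of Gbp5 and at 106 to 98 and 87 to 79 bases before that of Gbp7, with no overlap between the 2 kinds of match. No GAS core of these letters was in the windows of Gbp2 and Gbp3. In a second RefSeq window of Gbp3, at chr3:142560106-142560405, neither motif was found. Of 32851 promoter windows in the table, 3.44% held the ISRE core and 8.3% the GAS core. These matches describe letters and do not show binding.

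In the GENCODE vM21 annotation of GRCm38, Gbp5, Gbp7, Gbp3 and Gbp2 follow each other on the plus strand of chromosome 3 between positions 142493978 and 142638008. Gbp8, Gbp9, Gbp4 and Gbp6 lie on the minus strand of chromosome 5 between 105014150 and 105293698, where the annotated spans of Gbp4, Gbp8 and Gbp9 overlap. Close copies limit some of these genes, because estimated counts divide reads that fit several transcripts. The share of a gene's 31-base words that also occur in another guanylate-binding protein gene was 57.6% for Gbp6, of which the non-member Gbp10 held most (51.4% of Gbp6's words). It was 31.1% for Gbp8, 18.3% for Gbp9, 13.5% for Gbp4, 5.6% for Gbp3, 4.9% for Gbp2, 3.7% for Gbp7 and 0.0% for Gbp5. Gbp2 and Gbp3 shared 0 such words. Of Gbp6's words, 68.1% also occur outside the family. That share was 11.1% for Gbp7, 10.0% for Gbp8, 8.4% for Gbp9, 8.2% for Gbp4, 3.1% for Gbp5 and 0.0% for Gbp2 and Gbp3. The gene outside the family that held most of the family's words was Gm43302. The values of Gbp6 and Gbp8 in particular are therefore uncertain, since reads of relatives may be divided among them.

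The library totals lay between 668355 and 28550816 estimated counts (median 8644887), and the shallowest was the third KPC.2 library treated with IFNb. Levels are given as CPM, counts per 1000000 counts of the library after TMM scaling. Defining markers fitted some tumour labels and were absent for others. Melanocyte genes summed to 12000 to 12500 CPM in unstimulated B16.1 but to 18.7 to 25.5 CPM in unstimulated YUMMER1.7, where Mlana was at 0. Unstimulated MC38.7 had 0 to 0.0864 CPM over 6 colon epithelial genes, CT26.2 lacked Cdx1 and Epcam, and LLC lacked Nkx2-1, Sftpc, Scgb1a1 and Epcam. KPC.2 held all 6 pancreatic duct genes, Panc02.3 5 of 6 (Epcam at 0), and renal genes summed to 674 to 724 CPM in Renca. Leukocytes also express these GTPases, and 12 leukocyte markers summed to 2.5 to 180 CPM, with the macrophage gene Adgre1 at 0 in 23 of the 24 groups. In B16.1 they summed to 13.2 to 15.8 CPM with IFNg and 3.91 to 6.62 CPM with IFNb, against 2.5 to 2.87 CPM without stimulation, and their part in the results was not tested. The most such signal was in KPC.2, where the sums were 121 to 129 CPM with IFNg, 130 to 142 CPM with IFNb and 163 to 180 CPM without stimulation. In bulk RNA, fewer expressing cells and less RNA per cell cannot be told apart.

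**Figure D1:**
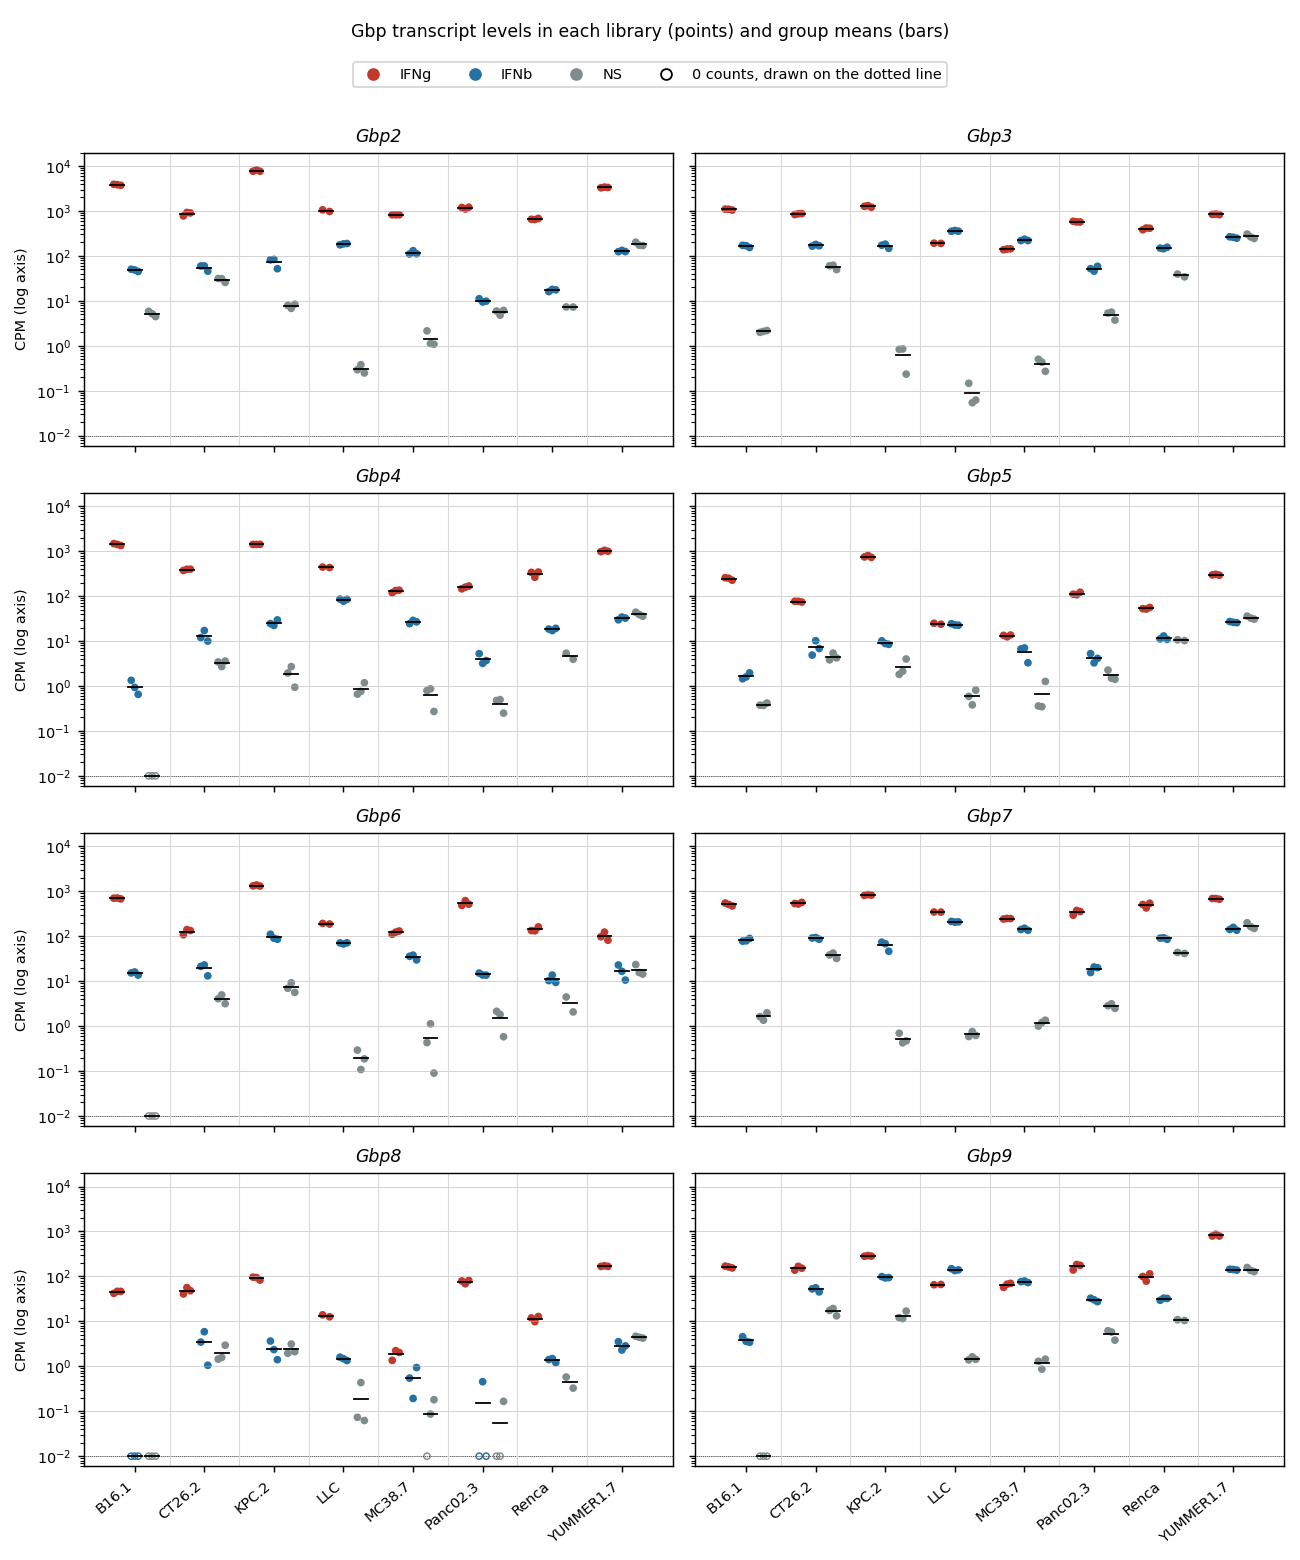
Level of each gene in every library (points) and group mean (bars), in CPM on a log axis, for 8 lines, with IFNg in red, IFNb in blue and NS in grey from left to right; open points on the dotted line are libraries with 0 counts. The IFNg points lie above the NS points in every line and gene, while in YUMMER1.7 the IFNb and NS points lie close together.

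IFNg raised every member in every line. All 64 pairs of member and line had an adjusted p under 0.05 in the higher direction in edgeR's quasi-likelihood test, where 12% of all gene and line pairs did. In all 64 the libraries with IFNg lay above those without, which held for 18.7% of all pairs. By line, the share of all genes that were higher was 27.6% in B16.1, 4.97% in CT26.2, 13.8% in KPC.2, 6.65% in LLC, 3.89% in MC38.7, 23.2% in Panc02.3, 6.04% in Renca and 9.79% in YUMMER1.7. No member was lower in any line, where 26.5% of genes were in B16.1, 3.86% in CT26.2, 15.8% in KPC.2, 4.6% in LLC, 0.886% in MC38.7, 31.6% in Panc02.3, 5.16% in Renca and 11% in YUMMER1.7 (12.4% of all pairs). Genes that were higher in all 8 lines made up 1.04% of those tested (168 genes, these 8 included). On the mean of the 8 lines all 8 members were higher, where 18.3% of all genes were higher and 23.7% lower. The smallest log2 difference among the 64 was 1.63 ± 0.07 (SE) for Gbp3 in YUMMER1.7.

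Gbp2 and Gbp5 carry a C-terminal CaaX motif for a prenyl anchor, and mouse Gbp2 restricts Toxoplasma at its vacuole. Gbp2 had 7684, 8200 and 7669 CPM in KPC.2 with IFNg, against 7.93, 6.81 and 8.45 CPM without stimulation, a log2 difference of 10.00 ± 0.12 (adjusted p = 2e-56). This was the highest level of any member in any group. In LLC it had 1060 and 976 CPM with IFNg, against 0.293, 0.379 and 0.248 CPM without (log2 difference 11.62 ± 0.15). In YUMMER1.7 the libraries with IFNg reached 3288, 3406 and 3335 CPM, against 202, 173 and 170 CPM without stimulation, a log2 difference of 4.2 ± 0.08. No libraries of the compared groups overlapped, and the mean of the 8 lines was 7.94 ± 0.04. The SE of such a mean reflects spread between libraries within groups and leaves out the spread between lines. Gbp5, which has been linked in mice to Nlrp3 inflammasome assembly, was the member with the widest range under IFNg among the 4 chromosome 3 genes. It averaged 757 ± 38.6 CPM in KPC.2 (SD, n = 3), 298 ± 6.76 CPM in YUMMER1.7 and 244 ± 16.3 CPM in B16.1, but 24.3 ± 0.833 CPM in LLC (n = 2) and 13.1 ± 0.643 CPM in MC38.7. Against NS its log2 difference lay between 2.35 ± 0.12 in Renca and 9.25 ± 0.17 in B16.1, with a mean over lines of 5.36 ± 0.06.

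Gbp3 and Gbp7 are encoded between Gbp5 and Gbp2, and mouse cells that lack the chromosome 3 cluster are impaired in killing Toxoplasma. Gbp3 had 1271, 1318 and 1213 CPM in KPC.2 with IFNg, against 0.834, 0.851 and 0.235 CPM without stimulation (log2 difference 10.79 ± 0.14). In YUMMER1.7 it had 839, 854 and 827 CPM with IFNg, against 307, 265 and 245 CPM without. These groups did not overlap either, and the 2 lines were nearer to each other with IFNg than without stimulation. Over the 8 lines the mean log2 difference was 6.88 ± 0.04, while single lines ran from 1.63 in YUMMER1.7 to 10.96 in LLC. Gbp7 was the most even member with IFNg: its line means ran from 246 ± 4.05 CPM in MC38.7 to 828 ± 18.8 CPM in KPC.2, a ratio of 3.37. The same ratio of the highest to the lowest line with IFNg was 9.01 for Gbp3, 11.9 for Gbp2, 57.8 for Gbp5 and 90.4 for Gbp8. Gbp7 differed from NS by 10.55 ± 0.17 on the log2 scale in KPC.2 and by 2.0 ± 0.08 in YUMMER1.7, with a mean of 6.48 ± 0.05.

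Of the chromosome 5 genes, Gbp4, Gbp6, Gbp8 and Gbp9, mouse Gbp6 and Gbp9 have been seen on Toxoplasma vacuoles. In B16.1 all 4 were at 0 counts in each of the 3 unstimulated libraries, so folds in that line are lower bounds, computed with 3 counts over the group as the floor. Gbp4 had 1473, 1413 and 1337 CPM in B16.1 with IFNg, at least 12100-fold higher than without stimulation. Gbp6 was at least 5980-fold higher in the same libraries, at 703, 710 and 679 CPM. Gbp9 (170, 163 and 154 CPM) was at least 1390-fold higher and Gbp8 (42.1, 46.7 and 46.4 CPM) at least 388-fold higher. The melanocyte genes in B16.1 summed to 4970 to 5160 CPM with IFNg, against 12000 to 12500 CPM without, and the part of this shift in the result was not tested.

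Outside B16.1, the highest level of Gbp4 with IFNg was 1410 ± 4.38 CPM in KPC.2, against 1.86 ± 0.881 CPM without stimulation, and the lowest was 129 ± 8.82 CPM in MC38.7, against 0.641 ± 0.323 CPM. Gbp6 averaged 1340 ± 39.3 CPM in KPC.2 with IFNg and 101 ± 21.2 CPM in YUMMER1.7, against 7.27 ± 1.81 CPM and 17.8 ± 4.89 CPM in the same lines without. Gbp8 had the lowest level per kb of longest transcript in 7 of the 8 lines with IFNg. The exception was YUMMER1.7, where Gbp6 was lower. This rank depended on the length used. Per kb of all exons, Gbp5 was below Gbp8 in CT26.2 (11.4 against 14.1), LLC (3.65 against 3.86) and Panc02.3 (17.0 against 22.2). Gbp8 had 167, 173 and 167 CPM in YUMMER1.7 with IFNg, against 4.66, 4.43 and 4.24 CPM without. In MC38.7 it had 1.36, 2.23 and 2.03 CPM with IFNg, against 0, 0.0864 and 0.180 CPM. In Panc02.3 it had 79.4, 68.7 and 81.2 CPM with IFNg, against 0, 0 and 0.166 CPM from 2 counts, a ratio of 1020 (95% counting interval 281 to 8420). Its groups did not overlap in any of the 8 lines, but its unstimulated groups held between 0 and 130 summed counts. Gbp9 was highest in YUMMER1.7, at 792, 869 and 792 CPM with IFNg, against 158, 136 and 128 CPM without (log2 difference 2.54 ± 0.09). In KPC.2, the second highest line, it averaged 285 ± 5.09 CPM with IFNg, against 13.5 ± 2.96 CPM. With groups of 0 counts at the floor, the mean log2 difference over the 8 lines was 8.24 for Gbp4, 7.42 for Gbp6, 6.10 for Gbp8 and 5.00 for Gbp9.

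IFNb raised 50 of the 64 member and line pairs and lowered 1, where 7.66% of all gene and line pairs were higher and 8.21% lower, and 13 did not pass. Libraries did not overlap in 51 pairs in the higher direction, against 13.7% of all pairs, and in 4 in the lower (Gbp2, Gbp4, Gbp5 and Gbp8 in YUMMER1.7), against 16.7%. On the mean of the 8 lines 7 members were higher and 0 lower, where 13% of all genes were higher and 17.3% lower. The edgeR test could not judge Gbp8 on this mean (SE 1629.43), since B16.1 held 0 counts of it in both groups. Gbp8 passed in DESeq2 (log2 difference 1.13, adjusted p = 0.00096) and in limma-voom (0.99, adjusted p = 0.00019). The 8 members were all higher in LLC, where 17.6% of all genes were, and in MC38.7 (13.8%). In B16.1 (14.6%), KPC.2 (2.52%), Panc02.3 (3.33%) and Renca (7.1%) 7 members were higher, and 6 in CT26.2 (1.97%). The pairs that did not pass outside YUMMER1.7 were Gbp8 in B16.1, CT26.2, KPC.2 and Panc02.3, and Gbp5 in CT26.2 and Renca. In YUMMER1.7 none was higher and Gbp2 was lower, where 0.384% of all genes were higher in that line and 0.972% lower. In the other lines no member was lower, where 14.3% of genes were in B16.1, 0.929% in CT26.2, 1.93% in KPC.2, 21% in LLC, 16.8% in MC38.7, 2.82% in Panc02.3 and 6.82% in Renca. Of all genes, 0.0434% were higher in all 8 lines with IFNb, and no member was among them.

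The size of the IFNb difference varied with the line. Gbp3 was the member with the largest mean log2 difference, 5.26 ± 0.05. In LLC it had 354, 368 and 356 CPM with IFNb, against 0.147, 0.0542 and 0.0621 CPM without stimulation, which came from 4 counts (log2 difference 11.87 ± 0.16, adjusted p = 1.8e-53). In CT26.2 it had 165, 181 and 168 CPM with IFNb, against 60.5, 62.3 and 49.7 CPM without (log2 difference 1.57 ± 0.08). In YUMMER1.7 it had 266, 261 and 248 CPM with IFNb and 307, 265 and 245 CPM without, groups that overlapped (log2 difference -0.07 ± 0.07, adjusted p = 0.79). Gbp2 had 177, 186 and 189 CPM in LLC with IFNb, against 0.293, 0.379 and 0.248 CPM without (log2 difference 9.15 ± 0.15). In YUMMER1.7, where Gbp2 fell, it had 124, 133 and 125 CPM with IFNb, against 202, 173 and 170 CPM without (log2 difference -0.51 ± 0.08, adjusted p = 1e-05). The mean log2 difference of Gbp2 over lines was 3.06 ± 0.05.

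Gbp7 was also raised most in LLC, with 214, 206 and 209 CPM in LLC with IFNb, against 0.586, 0.759 and 0.621 CPM without (log2 difference 8.28 ± 0.15). In Renca it averaged 89.6 ± 3.62 CPM with IFNb (SD, n = 3) and 42.5 ± 1.56 CPM without (n = 2), a log2 difference of 1.07 ± 0.10. Its mean over lines was 4.08 ± 0.06. Gbp5 gave the smallest mean among the chromosome 3 genes, 1.79 ± 0.10. It reached 24.3, 22.8 and 22.5 CPM in LLC with IFNb, against 0.586, 0.379 and 0.807 CPM without (log2 difference 5.29 ± 0.19). In Renca it had 11.1, 13 and 10.9 CPM with IFNb and 10.6 and 10.2 CPM without; these did not overlap, but the difference did not pass (log2 difference 0.16 ± 0.15, adjusted p = 0.59). In CT26.2 the values were 4.87, 10.2 and 6.84 CPM with IFNb and 3.81, 5.40 and 4.22 CPM without, and the groups overlapped (log2 difference 0.66 ± 0.25, adjusted p = 0.20).

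On chromosome 5, Gbp6 averaged 95.7 ± 13.4 CPM in KPC.2 with IFNb and 7.27 ± 1.81 CPM without (log2 difference 3.71 ± 0.22). In B16.1, from 0 counts without stimulation, Gbp6 had 15.3, 16.0 and 13.7 CPM with IFNb, at least 129-fold higher. Gbp9 (4.56, 3.58 and 3.42 CPM) was at least 33.7-fold higher there and Gbp4 (1.34, 0.927 and 0.652 CPM) at least 8.71-fold higher, while Gbp8 stayed at 0 counts in all 6 libraries. With those groups at the floor, the mean log2 difference over lines was 3.21 for Gbp4, 4.08 for Gbp6 and 3.29 for Gbp9. Melanocyte genes in B16.1 summed to 6720 to 6860 CPM with IFNb, against 12000 to 12500 CPM without, a shift whose part was not tested. Gbp4 was highest in LLC, at 85.8, 77.1 and 84.7 CPM with IFNb, against 0.659, 0.759 and 1.18 CPM without (log2 difference 6.55 ± 0.16). Gbp9 in LLC had 149, 135 and 140 CPM with IFNb, against 1.39, 1.63 and 1.43 CPM without (log2 difference 6.55 ± 0.15). Neither gene's groups overlapped in LLC. Gbp8 never exceeded a line mean of 3.46 ± 2.42 CPM with IFNb. It passed in LLC, at 1.60, 1.47 and 1.34 CPM with IFNb, against 0.0732, 0.433 and 0.0621 CPM without (log2 difference 2.74 ± 0.49). It also passed in MC38.7, from 16 counts with IFNb against 3 without (ratio 5.37, 95% counting interval 1.54 to 28.8, adjusted p = 0.038). In Renca the adjusted p was 0.043 (log2 difference 1.53 ± 0.53). The MC38.7 call was lost without replicate 1 or replicate 3 (adjusted p = 0.45 and 0.081), and the Renca call in each of the 3 fits without a replicate (adjusted p = 0.11 to 0.29) and in limma-voom (adjusted p = 0.065).

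**Figure D2:**
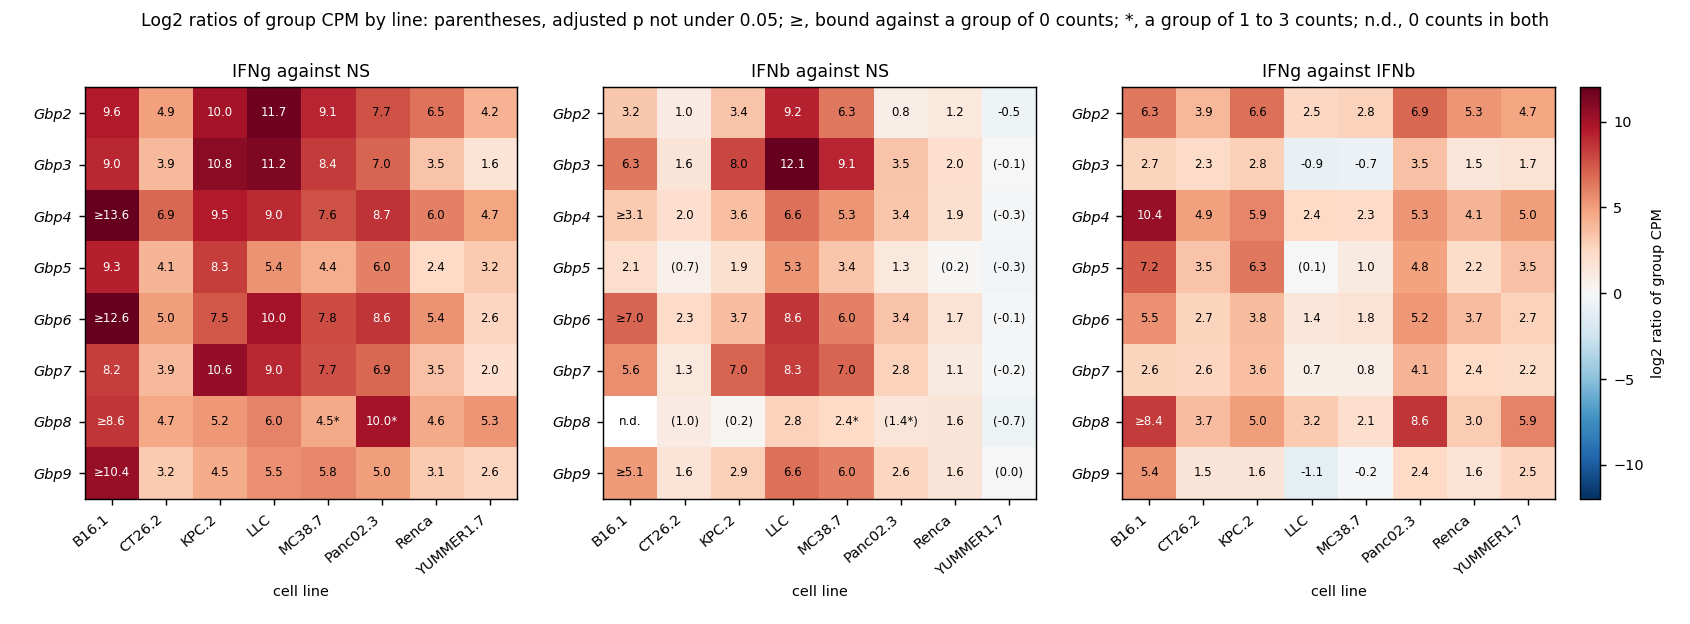
Log2 ratio of group CPM for each member (rows) and line (columns), for IFNg against NS, IFNb against NS and IFNg against IFNb; cells with parentheses had an adjusted p not under 0.05, and cells marked as bounds or with an asterisk rest on a group of 0 or of 1 to 3 counts. The first panel is positive throughout, YUMMER1.7 is near 0 in the second, and LLC and MC38.7 hold the negative cells of the third.

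Set against IFNb, IFNg gave the higher level in 59 of 64 pairs, where 13.9% of all gene and line pairs were higher, and the lower level in 4, where 12.6% were. One pair did not pass. All 8 members were higher on the mean of the 8 lines, where 18% of all genes were higher and 18.7% lower. The 5 members Gbp2, Gbp4, Gbp6, Gbp7 and Gbp8 were higher in all 8 lines, as were 0.322% of genes, while 0.00619% were lower in all 8. All 8 members were higher in B16.1 (26% of genes higher, 24.5% lower), CT26.2 (2.51% and 1.5%), KPC.2 (10.9% and 9.18%), Panc02.3 (22.6% and 30.4%), Renca (5.25% and 4.19%) and YUMMER1.7 (9.09% and 7.73%). In LLC 5 were higher and 2 lower (16.8% and 12.5% of genes), and in MC38.7 6 and 2 (17.8% and 10.5%). The 59 and the 4 pairs were also those whose libraries did not overlap, against 20.3% of all pairs in the higher and 18.5% in the lower direction. Doses of the cytokines are in different units, so this compares the treatments as given.

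The exceptions lay in LLC and MC38.7 and concerned Gbp3, Gbp9 and Gbp5. Gbp3 had 192 and 190 CPM in LLC with IFNg, against 354, 368 and 356 CPM with IFNb (log2 difference -0.91 ± 0.07, adjusted p = 1.3e-15). In MC38.7 it had 138, 142 and 144 CPM with IFNg, against 220, 236 and 220 CPM with IFNb (log2 difference -0.67 ± 0.07, adjusted p = 1.9e-12). In the other 6 lines Gbp3 was higher with IFNg, most so in Panc02.3, where 591, 572 and 570 CPM stood against 52.1, 45.9 and 58.8 CPM with IFNb (log2 difference 3.48 ± 0.08). Gbp9 had 65.4 and 66.2 CPM in LLC with IFNg, against 149, 135 and 140 CPM with IFNb (log2 difference -1.10 ± 0.10, adjusted p = 4.2e-13). In MC38.7 it had 57, 67.3 and 70.1 CPM with IFNg, against 76.5, 79.1 and 72.9 CPM with IFNb. That log2 difference of -0.24 ± 0.09 had an adjusted p of 0.046, which became 0.34 without replicate 1, 0.13 without replicate 2 and 0.05 with a replicate block. Gbp5 had 24.8 and 23.7 CPM in LLC with IFNg and 24.3, 22.8 and 22.5 CPM with IFNb, which overlapped (log2 difference 0.06 ± 0.10, adjusted p = 0.73). With Gbp4, Gbp6, Gbp8 and Gbp9, which share words, summed into 1 value, that sum was higher with IFNg in LLC (1.26) and MC38.7 (1.20). The sum takes in Gbp4 and Gbp6, which were higher with IFNg in both lines, so it cannot decide the direction of Gbp9.

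Wide gaps between the cytokines were seen in Gbp2 and Gbp4. Gbp2 was 4.88 ± 0.03 higher with IFNg on the log2 scale over the 8 lines, and in no line less than the 2.47 ± 0.08 of LLC. In Panc02.3 it had 1197, 1107 and 1213 CPM with IFNg, against 11.2, 9.45 and 9.84 CPM with IFNb (log2 difference 6.86 ± 0.10). Those groups lay far apart, while the unstimulated libraries, at 5.94, 4.8 and 6.14 CPM, lay below those with IFNb by less (log2 difference of IFNb against NS 0.81 ± 0.16, adjusted p = 0.00019). Gbp4 was 5.03 ± 0.04 higher over the lines and 10.42 ± 0.15 in B16.1, where 1473, 1413 and 1337 CPM with IFNg stood against 1.34, 0.927 and 0.652 CPM with IFNb. The mean gap over lines was 3.58 ± 0.05 for Gbp5, 3.34 ± 0.06 for Gbp6, 2.40 ± 0.03 for Gbp7, 1.72 ± 0.04 for Gbp9 and 1.62 ± 0.02 for Gbp3. For Gbp8 the 7 lines other than B16.1 lay between 2.05 ± 0.39 (MC38.7) and 8.49 ± 0.29 (Panc02.3), and in B16.1 it was at least 341-fold higher with IFNg, which gives a mean over lines of 4.99 at the floor.

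Every member differed between lines in each of the 3 contrasts by the F test that the 8 within-line differences are equal, which 48.2% of all genes passed for IFNb against NS, 69.2% for IFNg against NS and 70.1% for IFNg against IFNb. Levels also differed between lines for all 8 members, as they did for 96.5% of genes in NS, 96% with IFNb and 95.9% with IFNg. A line's departure is its log2 difference less the mean of the other 7, and the line with the largest one is given for each member and cytokine. For IFNg this was YUMMER1.7 for Gbp2 (-4.27 ± 0.10), Gbp3 (-6.01 ± 0.10) and Gbp7 (-5.11 ± 0.11), and B16.1 for the other 5. Of those, Gbp5 departed by 4.44 ± 0.31, while for Gbp4, Gbp6, Gbp8 and Gbp9 the fitted departure rests on the groups of 0 counts. With those groups at the floor, B16.1 lay 6.08 above the mean of the other lines for Gbp4, 5.86 for Gbp6, 2.85 for Gbp8 and 6.21 for Gbp9. At the floor Panc02.3 (9.99) stood above B16.1 (8.60) for Gbp8. For IFNb it was LLC for Gbp2 (6.96 ± 0.19), Gbp3 (7.55 ± 0.31) and Gbp5 (4.0 ± 0.28) and YUMMER1.7 for Gbp4 (-4.44 ± 0.20) and Gbp7 (-4.92 ± 0.12). For Gbp6 and Gbp9 the fit named B16.1, which lay 3.36 and 2.03 above the others with the unstimulated group at the floor, while its differences at the floor (7.02 and 5.07) stood below those of LLC (8.56 and 6.57 on the same scale). That of Gbp8 in LLC could not be judged (1.93, SE 5137.01), since the other 7 lines include B16.1, at 0 counts in both groups. Over all gene and line pairs, departures passed for 22.4% with IFNg and 11.1% with IFNb. Those shares count all 8 lines of each gene, not the largest departure only, so they are not a like measure for the members above.

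The differences against NS share their unstimulated libraries, and the unstimulated levels themselves varied widely. All 8 members were highest in YUMMER1.7 without stimulation, where Gbp3 averaged 272 ± 31.9 CPM, Gbp2 182 ± 17.8 CPM, Gbp7 171 ± 26 CPM and Gbp9 141 ± 15.8 CPM (SD, n = 3). In these 4 genes CT26.2 or Renca came second: Gbp3 had 57.5 ± 6.78 CPM in CT26.2 and 36.9 ± 3.73 CPM in Renca (n = 2), and Gbp7 had 42.5 ± 1.56 CPM in Renca and 37.6 ± 5.16 CPM in CT26.2. At the low end, Gbp3 had 0.0876 ± 0.0512 CPM in LLC, 0.401 ± 0.119 CPM in MC38.7 and 0.64 ± 0.351 CPM in KPC.2. For Gbp2 without stimulation the order was YUMMER1.7, CT26.2, KPC.2, Renca, Panc02.3, B16.1, MC38.7 and LLC, from 182 to 0.307 CPM. The 4 lines from KPC.2 (7.73 CPM) to B16.1 (5.17 CPM) did not differ between neighbours (adjusted p = 0.073 to 0.79). For Gbp3 the order was YUMMER1.7, CT26.2, Renca, Panc02.3, B16.1, KPC.2, MC38.7 and LLC, and of the 7 neighbouring pairs only KPC.2 and MC38.7 did not differ (adjusted p = 0.20). Among all genes and pairs of lines, 68.7% passed this test in NS.

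With IFNb the order changed, and LLC was highest for Gbp2 (184 ± 6.37 CPM), Gbp3 (360 ± 7.44 CPM), Gbp4 (82.5 ± 4.73 CPM) and Gbp7 (210 ± 3.83 CPM). YUMMER1.7 was highest for Gbp5 (26.3 ± 0.742 CPM) and Gbp9 (142 ± 3.29 CPM), KPC.2 for Gbp6 and CT26.2 for Gbp8. For Gbp8 the CT26.2 libraries (1.05 to 5.88 CPM) overlapped those of YUMMER1.7 (2.31 to 3.53 CPM). Neither Gbp5 nor Gbp9 differed between YUMMER1.7 and LLC, the next line (adjusted p = 0.14 and 1). Panc02.3 was lowest for Gbp2 (10.2 ± 0.909 CPM), Gbp3 (52.2 ± 6.44 CPM) and Gbp7 (18.8 ± 2.78 CPM), and B16.1 for Gbp4 (0.971 ± 0.344 CPM), Gbp5, Gbp8 and Gbp9. For Gbp8 the Panc02.3 libraries also reached down to 0, at 0 to 0.454 CPM. With IFNg, KPC.2 was highest for Gbp2, Gbp3, Gbp5, Gbp6 and Gbp7, YUMMER1.7 for Gbp8 and Gbp9, and for Gbp4 the first 2 lines, KPC.2 and B16.1, did not differ by the test (adjusted p = 0.97). MC38.7 had the lowest mean for Gbp3, Gbp4, Gbp5, Gbp7, Gbp8 and Gbp9. For Gbp9 its libraries (57 to 70.1 CPM) overlapped those of LLC (65.4 and 66.2 CPM). With IFNg the number of the 7 neighbouring pairs of lines that differed was 7 for Gbp5, 6 for Gbp2 and Gbp3, 5 for Gbp4 and 4 for Gbp6, Gbp7, Gbp8 and Gbp9. With IFNb it was 6 for Gbp2 and Gbp4, 5 for Gbp9, 4 for Gbp3 and Gbp7, 3 for Gbp5 and Gbp6 and 1 for Gbp8. Over all genes and all pairs of lines, neighbouring or not, 68.1% passed with IFNg and 67.1% with IFNb.

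Summed over the 8 members, KPC.2 reached 13620, 14350 and 13530 CPM with IFNg and 577, 552 and 465 CPM with IFNb, against a mean of 36.5 ± 2.26 CPM without stimulation (SD, n = 3). The third IFNb library of KPC.2 was the shallowest of the series. B16.1 averaged 7980 ± 263 CPM with IFNg, 317 ± 7.93 CPM with IFNb and 9.3 ± 0.475 CPM without, and YUMMER1.7 7260 ± 180, 750 ± 28.2 and 860 ± 103 CPM in the same order. The lowest sum with IFNg was that of MC38.7 (1540 ± 32.9 CPM), followed by Renca (2180 ± 152 CPM), LLC (2290 ± 75.7 CPM), CT26.2 (3060 ± 158 CPM) and Panc02.3 (3150 ± 89.9 CPM). With IFNb the extremes were LLC (1070 ± 6.43 CPM) and Panc02.3 (134 ± 6.07 CPM). The sum in Panc02.3 with IFNg thus stood above that in LLC, while with IFNb it stood below.

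Levels of different members were compared per kilobase of each gene's longest transcript, as CPM per kb. With IFNg, Gbp2 was first of the 8 members in all 8 lines, at 3120 CPM per kb in KPC.2, 1520 in B16.1, 1330 in YUMMER1.7 and 263 in Renca, the lowest. With IFNb, Gbp3 was first in all 8 lines, at 134 CPM per kb in LLC and 19.5 in Panc02.3 at the extremes. Without stimulation Gbp2 was first in 4 lines, Gbp3 in 3 and Gbp9 in 1. Dividing by the length of all exons or of the coding sequence left Gbp2 first in 8 lines with IFNg and Gbp3 first in 8 lines with IFNb. By coding length the unstimulated lines were split between Gbp2 (3), Gbp3 (2), Gbp9 (2) and Gbp7 (1). Gbp8 stood between 0.553 CPM per kb in MC38.7 and 50 CPM per kb in YUMMER1.7 with IFNg.

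**Figure D3:**
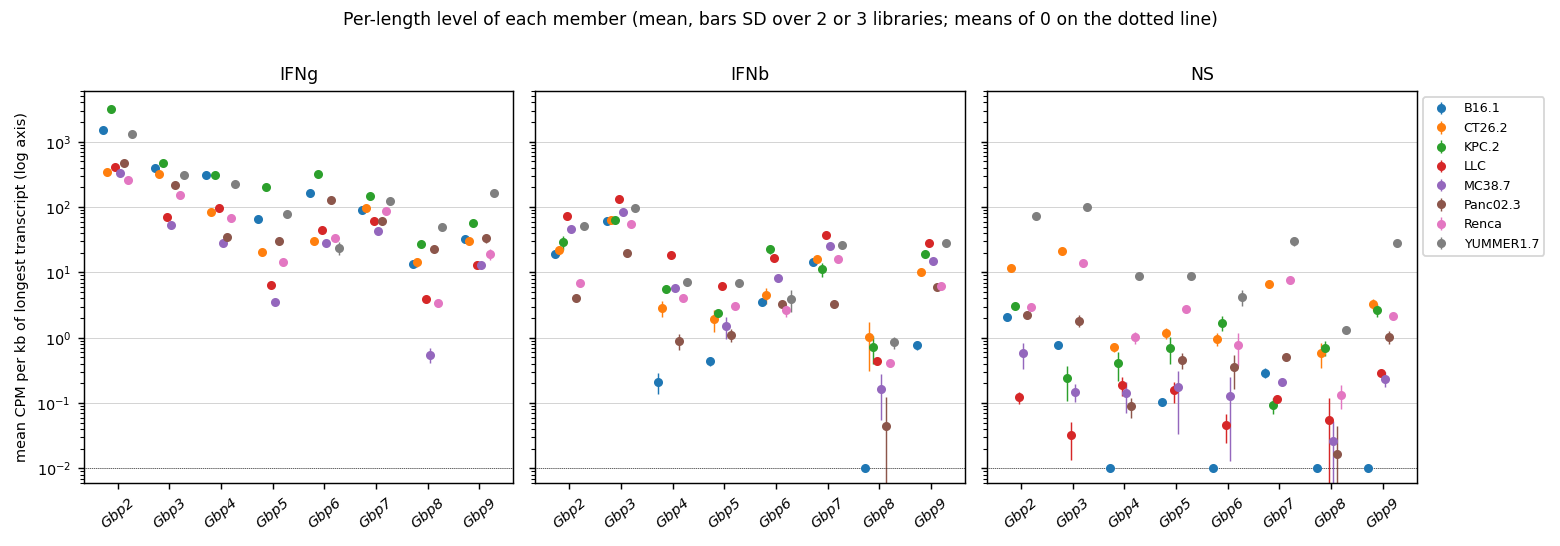
Mean CPM per kb of longest transcript on a log axis for each member, in IFNg, IFNb and NS panels from left to right; colours are lines, bars are SD over 2 or 3 libraries, cut short below where they would cross 0, and means of 0 stand on the dotted line. Gbp2 holds the top position in the IFNg panel and Gbp3 in the IFNb panel.

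The ratio of Gbp2 to Gbp3 within a library, in counts per kb, needs no scaling between libraries, and these 2 genes share 0 of the 31-base words. The pair was chosen after these values were seen, so the ratio is given as a description. It lay between 0.993 and 6.74 with IFNg (median 3.8) and was over 1 in 22 of 23 libraries. With IFNb it lay between 0.115 and 0.593 (median 0.381) and was over 1 in 0 of 24 libraries. Without stimulation it ran from 0.198 to 38.4 (median 2.13) and was over 1 in 14 of 23 libraries. The 38.4 came from 36 counts of Gbp2 and 1 of Gbp3 in replicate 3 of KPC.2, and the next highest was 10.1. The unstimulated LLC ratios rest on 1 or 2 counts of Gbp3 each. By line, the mean ratio was 6.61 ± 0.148 in KPC.2 with IFNg and 0.456 ± 0.07 with IFNb. In CT26.2 it was 1.08 ± 0.0782 with IFNg, where 1 library was below 1, and 0.343 ± 0.0488 with IFNb. In Renca it was 1.74 ± 0.0893 with IFNg and 0.122 ± 0.00926 with IFNb.

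**Figure D4:**
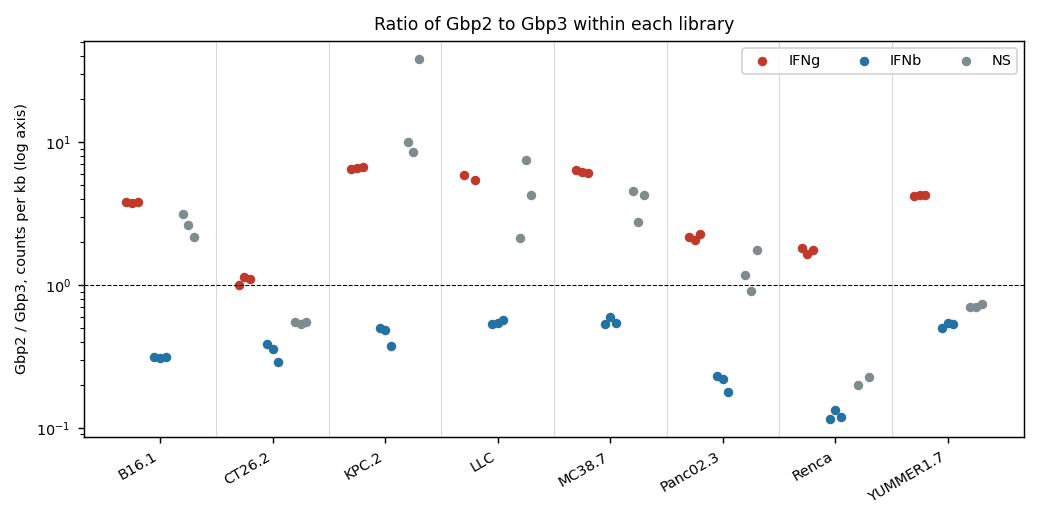
Ratio of Gbp2 to Gbp3 in counts per kb, on a log axis, in each library of the 8 lines, with IFNg in red, IFNb in blue and NS in grey from left to right; the dashed line marks 1. All 24 IFNb points lie below the line and 22 of 23 IFNg points above it.

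Shares of the 8 members' counts, which compare groups and not genes of unequal length, also moved. Gbp2 made up 56.7% in KPC.2 with IFNg and 53.4% in MC38.7, the 2 highest, and 28.4% in CT26.2, the lowest. With IFNb its share lay between 5.2% in Renca and 18.7% in MC38.7, while that of Gbp3 lay between 31.6% in KPC.2 and 52.1% in B16.1. The 4 chromosome 3 genes together held 69.1% ± 0.484 of the counts in LLC with IFNg (n = 2) and 79.4% ± 1.26 in MC38.7, the extremes under that cytokine. With IFNb the extremes were KPC.2 at 58.6% ± 3.82 and B16.1 at 93.7% ± 0.42. Without stimulation they held 31.6% ± 3.29 in KPC.2 and 100% in B16.1, where the chromosome 5 genes were at 0 counts.

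The immunity-related GTPases, which load onto parasite vacuoles together with guanylate-binding proteins in mice, moved the same way: 10 of 10 were higher on the mean of the lines in each of the 3 comparisons. Of all genes, 18.3% were higher for IFNg against NS, 13% for IFNb against NS and 18% for IFNg against IFNb. The median log2 difference of the 10 immunity-related GTPases was 7.19, 4.17 and 3.15 in the same order. With groups of 0 counts at the floor these medians were 7.27, 4.11 and 3.18. The medians over the 8 members, set likewise, were 6.70, 3.25 and 3.46 in the same order, and those over all genes were -0.04, -0.02 and -0.01. The largest rises with IFNg were those of Tgtp1, Iigp1 and Gm12250, each with 1 unstimulated line at 0 counts, and their means at the floor were 9.54, 9.39 and 8.91. By the mean of log2 CPM over the 24 groups, the 5 genes outside the family whose pattern was most like the members' were Ifi47 (Pearson r = 0.978), Tgtp1 (0.976), Iigp1 (0.976), Igtp (0.973) and Gm4951 (0.968), all of them in the list of immunity-related GTPases. These r describe 24 groups that share 3 treatments and 8 lines.

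For the gene lists that follow, the shares of all genes on the mean of the lines were 18.3% higher and 23.7% lower with IFNg, and 13% higher and 17.3% lower with IFNb. Among the signalling genes, 8 of 9 STAT and IRF genes were higher with IFNg and 8 of 9 with IFNb. Irf1, which switches on many IFNg targets, was 3.80 ± 0.03 higher with IFNg than in NS on the log2 scale and 3.04 ± 0.02 higher than with IFNb. In KPC.2 it averaged 1140 ± 41.2 CPM with IFNg, 93.9 ± 10.1 CPM with IFNb and 61.2 ± 3.56 CPM without. Batf2, with 1 unstimulated line at 0 counts, was 7.49 higher with IFNg and 2.60 with IFNb at the floor, and Irf7 5.30 ± 0.05 higher with IFNb and 3.82 ± 0.06 with IFNg. The 3 means of Irf8 could not be judged by the test (SE 763.07 to 6447.74). Irf8 was higher with IFNg than NS in 5 lines, and its differences varied between lines (F test, adjusted p = 3.2e-22). It averaged 94.8 ± 5.44 CPM in KPC.2 with IFNg, against 0.235 ± 0.296 CPM without, and was at 0 counts in all libraries of Panc02.3. Of the 7 receptor and kinase genes, 3 were higher and 4 lower with IFNg, by little: Ifnar2 0.65 ± 0.03, Jak2 0.55 ± 0.03 and Ifngr1 -0.27 ± 0.03. With IFNb, Jak2 rose (0.18 ± 0.03) and Ifnar1 fell (-0.15 ± 0.02), and 1 of 7 in each direction is near the share of all genes. The other 5 did not pass, Tyk2 (-0.09 ± 0.04) and Ifnar2 (0.07 ± 0.04) among them. Of 8 negative regulators, 4 were higher with IFNg, led by Socs1 (3.67 ± 0.06) and Usp18 (3.21 ± 0.07), and 2 with IFNb, Usp18 (4.84 ± 0.06) and Socs1 (0.92 ± 0.10). Ptpn6 (-0.40 ± 0.25) and Cish (0.26 ± 0.31) did not pass with IFNg.

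Genes that act on or after guanylate-binding proteins moved unequally. Of 9 inflammasome and pyroptosis genes tested, 6 were higher with IFNg and 6 with IFNb: the nucleic acid sensor Zbp1, with 2 unstimulated lines at 0 counts, by 7.69 and 5.99 at the floor, and the caspase Casp1 by 3.19 ± 0.14 and 1.06 ± 0.34. The Casp1 call with IFNb was lost without replicate 1 (log2 difference 0.67) and without replicate 3 (1.08). Pycard did not pass with either cytokine, and the means of Nlrp3 could not be judged (SE 535.25 with IFNg and 1873.28 with IFNb). Casp4 rose by 2.63 ± 0.07 with IFNg. Of 6 genes of vacuole ubiquitination and the ligases and binders around it, 4 were higher with each cytokine. Parp14 rose by 4.37 ± 0.04 with IFNg and 3.49 ± 0.04 with IFNb, and Trim21 by 2.39 ± 0.04 and 1.69 ± 0.04. Traf6 did not pass (-0.05 ± 0.04 and 0.03 ± 0.04). The means of Ubd could not be judged (SE 11111.21 with IFNg and 361.25 with IFNb), and its IFNg differences by line ran from 0 to 10.45. Of 10 genes of the ATG8 conjugation system, which in mice guides these GTPases to vacuoles, 4 were higher and 3 lower with IFNg and 0 higher and 5 lower with IFNb, and the 3 lower with IFNg are near the share of all genes (23.7%). These were small, such as Atg3 at 0.18 ± 0.03 and Map1lc3a at -0.27 ± 0.04 with IFNg and Gabarap at -0.33 ± 0.03 with IFNb. Of 5 prenylation genes, 2 were higher and 2 lower with IFNg, with Icmt at -0.28 ± 0.03 and Fnta at -0.17 ± 0.03, and 1 was lower with IFNb (Fnta, -0.21 ± 0.03), which is near the share of all genes (17.3%). Of the rises with IFNg, that of Rce1 (0.12) was lost without replicate 2 (adjusted p = 0.16).

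Of the 3 other guanylate-binding protein genes in the table, Gbp2b, which sits between Gbp3 and Gbp2, had more than a few counts in 2 lines. It had 846, 1008 and 992 CPM in CT26.2 with IFNg and 41.6, 39.6 and 31.6 CPM with IFNb, against 24.7, 22.9 and 18.6 CPM without stimulation (log2 difference of IFNg against NS 5.41 ± 0.11). In Renca it had 434, 451 and 451 CPM with IFNg and 8.76, 11.1 and 11.7 CPM with IFNb, against 8.0 and 5.78 CPM without (log2 difference 5.99 ± 0.14). In the 18 groups of the other 6 lines its counts summed to 6 or fewer. Those 2 lines are the BALB/c ones, so genotype and line cannot be told apart. Gbp10, whose words mostly recur in Gbp6, averaged 987 ± 22.4 CPM in KPC.2 and 709 ± 77.6 CPM in B16.1 with IFNg, against 1 and 0 counts in the unstimulated groups, and 3.73 ± 1.4 CPM in MC38.7. With Gbp6 and Gbp10 summed, the direction and call of Gbp6 held in each line and comparison. Gbp11, annotated as a polymorphic pseudogene, was highest in B16.1 with IFNg (219 ± 2.68 CPM), against 0.104 ± 0.18 CPM from 3 counts without.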

How the data were processed

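RNA was extracted with RNeasy kits and made into directional libraries, per the labels' protocols. The deposited values are estimated counts per gene, which the authors made with Trimmomatic 0.36 and kallisto (version not given in the sources used here) on mm10/GRCm38, per the submitters' processing notes; how transcripts were summed to genes is not given there. Kallisto divides reads between similar transcripts, so close copies can trade counts. Estimated counts were rounded to whole numbers. All 70 libraries were fitted as 24 groups with edgeR 4.0.16 in R 4.3.3 (TMM scaling, quasi-likelihood test), over 16147 of 35197 genes that passed the filter on low counts. Contrasts were IFNg against NS, IFNb against NS and IFNg against IFNb, in each line and on the mean of 8 lines, plus F tests of differences between lines. Benjamini-Hochberg adjusted p-values cover all genes tested, with a threshold of 0.05. SE is the standard error of a log2 difference, and CPM is scaled by TMM. On the mean of 8 lines the SE leaves out the spread between lines. Groups with 0 counts were set at a floor of 3 counts over the group, and counting intervals (95%) cover counting error only. Tested on simulated B16.1 data over 15859 genes, the script recovered 95% of 2-fold and 100% of 4-fold changes and called 14 unchanged genes. The simulation gave all genes the same spread setting and changed only genes over 2 CPM without stimulation. Among the members only Gbp2 and Gbp3 were over that level in B16.1, so the rates do not cover the others there. Alternatives used limma 3.58.1, DESeq2 1.42.0, other filters, scalings and left-out replicates. Replicate libraries were not identical in any pair. Gene lengths came from GENCODE vM21. Named genes were all 8 members, up to 3 genes of each list with the largest passed difference and up to 2 that did not pass, the line of largest departure, and the 5 genes most like the members. The members and lists were chosen with earlier results of these data known. The values of 1 signalling gene are not reported here.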

Additional observations from a re-analysis of the deposited data

Results flagged for a closer look

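All 8 members differed between the 8 lines in their response, by the F test that the within-line differences are equal. For IFNg against NS the adjusted p was 1.6e-44 for Gbp2, 3.2e-49 for Gbp3, 1.5e-32 for Gbp4, 5.4e-34 for Gbp5, 1.6e-26 for Gbp6, 3.2e-43 for Gbp7, 4.6e-09 for Gbp8 and 2.9e-27 for Gbp9 in edgeR's test. For IFNb against NS it was 5.2e-46 for Gbp2, 1.3e-51 for Gbp3, 2.4e-33 for Gbp4, 2e-27 for Gbp5, 4.2e-23 for Gbp6, 4.7e-45 for Gbp7, 4.4e-05 for Gbp8 and 2.4e-35 for Gbp9. For IFNg against IFNb it was 7e-42 for Gbp2, 1.8e-44 for Gbp3, 1.1e-38 for Gbp4, 1.3e-39 for Gbp5, 1.4e-25 for Gbp6, 9.5e-33 for Gbp7, 5.3e-16 for Gbp8 and 8.6e-36 for Gbp9. Such a difference was common among all genes (69.2%, 48.2% and 70.1% in the same order).

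Single lines stood apart from the mean of the other 7, on the log2 scale. With IFNg, YUMMER1.7 departed by -4.27 for Gbp2, -6.01 for Gbp3 and -5.11 for Gbp7, and B16.1 by 4.44 for Gbp5. The fitted departures of B16.1 for Gbp4 (9.29), Gbp6 (9.08), Gbp8 (6.12) and Gbp9 (9.41) rest on unstimulated groups of 0 counts and are not bounds; with those groups at the floor they were 6.08, 5.86, 2.85 and 6.21. With IFNb, LLC departed by 6.96 for Gbp2, 7.55 for Gbp3 and 4.0 for Gbp5, and YUMMER1.7 by -4.44 for Gbp4 and -4.92 for Gbp7. The fitted departures of B16.1 for Gbp6 (6.58) and Gbp9 (5.24) again rest on 0 counts, and were 3.36 and 2.03 at the floor. YUMMER1.7 also had the highest unstimulated level of all 8 members, and LLC the lowest unstimulated level of Gbp2 and Gbp3. The part of the unstimulated level in these departures was not tested.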

How the results depend on the processing

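Counts of members and pairs were recomputed with DESeq2, limma-voom, RLE scaling, no filter, each line fitted alone, a replicate block, and without replicates or the shallowest library. IFNg against NS gave 64 pairs in all of them, and 133 of 135 counts stayed within 1.5 times. The exceptions were the pairs lower with IFNb than NS, 2 with DESeq2 and 2 with each line alone, against 1; the added pair was Gbp5 in YUMMER1.7 (-0.31, adjusted p = 0.026). Without a replicate, pairs higher with IFNb ranged from 48 to 49 and pairs lower with IFNg than IFNb from 3 to 4. Leaving out a replicate number leaves LLC with IFNg or unstimulated Renca with 1 library, assumed to vary like the others. Same-numbered libraries did not deviate together (68 correlations from -0.17 to 0.101, median -0.00788), and a replicate block gave 49 pairs higher with IFNb, 64 with IFNg and 3 lower with IFNg than IFNb; it lost Gbp8 in Renca with IFNb (1.49, adjusted p = 0.087) and Gbp9 in MC38.7 (-0.25, adjusted p = 0.05). Of 2271 member results and settings, 2245 kept direction and call, 10 lost the call, 8 gained it and 8 changed sign. Sign changes came with IFNb against NS in Gbp8 (KPC.2, -0.28 to 0.72 without a replicate; Panc02.3, -3.1 to 4.5), Gbp3 in YUMMER1.7 (-0.12 to 0.03) and Gbp9 in YUMMER1.7 (-0.04 to 0.12), none of which had passed. With the 4 chromosome 5 genes summed, Gbp8 in B16.1 became 10.61 and Gbp9 in YUMMER1.7 -0.07 (IFNb against NS), and Gbp9 became 1.26 in LLC and 1.20 in MC38.7 (IFNg against IFNb), which by construction follow the sum. The 10.61 was fitted against unstimulated libraries with 0 counts of all 4 genes and is not a bound. The mean of Gbp8 with IFNb passed with DESeq2 (1.13, adjusted p = 0.00096) and limma-voom (0.99, adjusted p = 0.00019). Limma-voom lost Gbp8 in Renca with IFNb (1.52, adjusted p = 0.065). Without a replicate the calls of Il18 with IFNb (1.03, replicate 1), Gbp10 with IFNb (3.41, replicate 2) and Rce1 with IFNg (0.09, replicate 2) were lost. The cause of the other changes was not tested. Leaving out the shallowest library and summing Gbp6 with Gbp10, both chosen after seeing the data, changed no call of a member. RLE scaling moved no median by over 0.045. Low counts limit Gbp8 and the unstimulated chromosome 5 genes.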
